A study of Mus musculus with 10 samples.

Results

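The complement genes C2, C3, C4b, Cfb, Cfp, C7, Serping1, C3ar1 and C5ar1 were examined in the abdominal aorta, on the probe sets annotated to exactly 1 of these symbols. Of the 9 genes, 6 had such a probe set, with 12 probe sets in all, out of 18193 genes with 1 symbol on the array. C4b was represented on 1 probe set that is annotated to C4a as well, and C3 and C7 were not analysed here because no probe set in the annotation carries their symbols. KCASP1Tg mice overexpress human caspase-1 in keratinocytes under the K14 promoter, so that the transgene is driven in the skin, and their C57BL/6 littermates served as WT controls. The mice were female and 4 months old (16 weeks), and 6 KCASP1Tg and 4 WT aortas were hybridised to GeneChip Mouse Genome 430 2.0 arrays. The labels give each array as a separate mouse, whereas the methods name fewer mice than there are arrays. The comparison asks how the aortic transcriptome differs in mice with persistent dermatitis.

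Complement is a cascade of blood proteases that marks particles for uptake, attracts leukocytes and punches pores in membranes. The classical and lectin pathways cleave C4 and C2 to form a C3 convertase, whereas the alternative pathway builds its convertase from C3 and factor B and holds it together with properdin. Most circulating components come from the liver, but macrophages, fibroblasts and endothelial cells in a vessel wall make part of them locally.

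Of the 6 genes with a value, 5 could be tested. None of these was called between KCASP1Tg and WT mice at an adjusted p under 0.05. C5ar1 had signals too low for that test. The signals of KCASP1Tg and WT mice overlapped on all 12 probe sets. On the probe set with the highest mean signal, the fold difference of KCASP1Tg over WT ran from 1.07 for C2 over 1.15 for Cfb, 1.18 for Serping1, 1.38 for Cfp and 1.40 for C3ar1 to 1.41 for C5ar1. KCASP1Tg 3 or KCASP1Tg 4 gave the highest signal on 9 of the 12 probe sets: KCASP1Tg 3 on 6 and KCASP1Tg 4 on 3. Some of these belong to the same gene. Counted by gene, KCASP1Tg 3 was highest for 2 and KCASP1Tg 4 for 3 of the 6. How often these arrays are highest over all probe sets is not given here. Among the tested partners of these genes, the largest log2 differences were in the subunits of complement receptor 3, in the C1q chains and in the membrane inhibitor Cd59a, and none of them passed the test either. Hc and Cfi, partners whose signals were too low on most arrays to be tested, differed by more. Their highest values were in WT 1 and WT 3, the arrays with the highest sums of hepatocyte markers. For both genes WT 2 lay within the KCASP1Tg range, and WT 4 lay above it.

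Promoter sequences were at hand for 3 of the 6 genes with a value, Cfp, C3ar1 and C5ar1, all known for their expression in myeloid cells. They are shown because these were the sequences at hand, and the values of Cfp and C3ar1 are set beside leukocyte transcripts below. Each RefSeq window (GRCm38.p6) runs 5′ to 3′ from 250 bases before the gene's start to 50 bases after it, and capitals mark GAGGAA on either strand, the core of the motif bound by PU.1, a transcription factor of myeloid and B cells.
Cfp, chrX:20931506-20931805, minus strand: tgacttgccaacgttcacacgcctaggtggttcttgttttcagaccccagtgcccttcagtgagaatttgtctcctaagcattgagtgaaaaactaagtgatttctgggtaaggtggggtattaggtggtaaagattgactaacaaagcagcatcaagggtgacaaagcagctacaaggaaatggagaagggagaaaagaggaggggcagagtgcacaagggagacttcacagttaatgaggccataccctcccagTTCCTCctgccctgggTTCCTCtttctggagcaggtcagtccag
C3ar1, chr6:122856108-122856407, minus strand: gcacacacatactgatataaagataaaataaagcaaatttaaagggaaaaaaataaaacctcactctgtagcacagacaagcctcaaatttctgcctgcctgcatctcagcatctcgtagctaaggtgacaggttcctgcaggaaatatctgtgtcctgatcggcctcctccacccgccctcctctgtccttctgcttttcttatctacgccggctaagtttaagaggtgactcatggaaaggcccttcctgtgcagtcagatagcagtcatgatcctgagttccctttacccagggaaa
C5ar1, chr7:16259289-16259588, minus strand: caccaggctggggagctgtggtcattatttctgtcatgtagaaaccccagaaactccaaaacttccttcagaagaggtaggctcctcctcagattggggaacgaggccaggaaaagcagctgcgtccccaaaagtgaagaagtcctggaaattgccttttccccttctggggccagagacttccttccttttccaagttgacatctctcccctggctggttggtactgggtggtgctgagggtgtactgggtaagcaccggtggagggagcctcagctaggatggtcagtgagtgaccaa
The Cfp window holds 2 matches, both on the opposite strand and therefore read as TTCCTC, at bases 257 to 262 and 273 to 278 of the window, and they do not overlap. The windows of C3ar1 and C5ar1 hold 0 matches. Among all 32851 promoters of this length 28.3% hold the motif, so a match is common and is given as a description of the letters only.

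Signals are intensities scaled to the same trimmed mean on each array, and log2 fold changes are KCASP1Tg minus WT. Genes were tested with limma where the signal reached 100 on at least 4 arrays, with Benjamini-Hochberg adjustment over all probe sets tested, and called at an adjusted p under 0.05. The smooth muscle list, which defines the tissue, had sums of 31012 to 81429 in KCASP1Tg mice and 70984 to 81449 in WT mice, with KCASP1Tg 4 at 31012 and the other KCASP1Tg mice from 67098 upwards. Some arrays stood apart through transcripts of other cell types. The summed signal of 8 hepatocyte markers was 436 to 3878 in KCASP1Tg mice, against 144220 in WT 1, 1937 in WT 2, 60403 in WT 3 and 7012 in WT 4. All 8 macrophage markers had a higher mean in KCASP1Tg mice and 3 did not overlap between the genotypes, and their sum was 14190 to 43215 in KCASP1Tg mice and 10043 to 15084 in WT mice. Among neutrophil markers, the 7 with a probe set had sums of 6449 to 54268 in KCASP1Tg mice against 612 to 833 in WT mice. All 7 had a higher mean in KCASP1Tg mice. The genotypes did not overlap for 4 of them, S100a8, S100a9, Ngp and Ltf, whereas Csf3r, Cxcr2 and Mmp9 overlapped. Ngp averaged 2032 in KCASP1Tg mice and 79.6 in WT mice, and Ltf 686.0 in KCASP1Tg mice and 48.4 in WT mice. S100a8 and S100a9 made up most of the KCASP1Tg sums, with means of 6483 and 6027. According to the paper, a cytokine mixture raised S100a8 and S100a9 in cultured endothelial cells. For the 5 B cell markers, sums were 522 to 13220 in KCASP1Tg mice against 490 to 1067 in WT mice. KCASP1Tg 4 was the highest array for all 3 leukocyte lists. Heart muscle markers summed to 472 to 29566 in KCASP1Tg mice and 2121 to 58515 in WT mice, with WT 4 at the top. In bulk tissue, more cells of a type and more RNA per cell cannot be told apart.

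C2 is the serine protease that pairs with C4b in the classical C3 convertase. Its main probe set, 1416051_at, had signals between 737.7 and 1409 in KCASP1Tg mice, with a median of 953.5, against 984.7, 991.5, 1016 and 650.5 in WT 1 to WT 4. KCASP1Tg 3 was highest and WT 4 lowest, and all other mice of both genotypes lay between 737.7 and 1016. The mean was 975.7 ± 235.9 in KCASP1Tg mice (SD, n = 6) and 910.5 ± 173.9 in WT mice (SD, n = 4). C2 therefore differed by a log2 value of 0.09 (SE 0.20, 95% interval −0.34 to 0.53, limma adjusted p = 0.971).

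The direction for C2 was not stable. Without WT 4 it was −0.06 and without KCASP1Tg 3 it was −0.02, and both other probe sets, whose suffix marks probes that can be shared with other sequences, had log2 fold changes of −0.07. On 1457664_x_at the mean was 795.4 ± 129.3 in KCASP1Tg mice and 834.8 ± 132.6 in WT mice, and on 1441912_x_at it was 795.1 ± 140.7 in KCASP1Tg mice and 832.8 ± 116.1 in WT mice (SD, n = 6 and 4).

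Cfb, complement factor B, is the catalytic subunit of the alternative pathway convertase, and its gene is the direct neighbour of C2 in the mouse gene table. Its only probe set, 1417314_at, ranged from 806.2 to 2267 in KCASP1Tg mice around a median of 1023, against 1707, 853.1, 868.8 and 937.6 in WT 1 to WT 4. KCASP1Tg 4 and KCASP1Tg 3 (1558) stood above their group, and WT 1 stood above the other WT mice. The other 4 KCASP1Tg mice lay between 806.2 and 1024, a range that holds the other 3 WT mice. Cfb averaged 1281 ± 544.3 in KCASP1Tg mice and 1092 ± 412.0 in WT mice (SD, n = 6 and 4), a log2 difference of 0.20 (SE 0.30, 95% interval −0.47 to 0.88, limma adjusted p = 0.951).

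A handful of mice set the size of the Cfb difference. It was 0.44 without WT 1 (adjusted p = 0.931), the array with the most hepatocyte transcripts, and 0.02 without KCASP1Tg 4 (adjusted p = 0.992), the array with the most leukocyte transcripts. Excluding WT 1, WT 3 and KCASP1Tg 4 together gave 0.24. The liver is a known source of factor B and activated macrophages are another, but the part of either in these signals was not tested.

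Cfp encodes properdin, the plasma protein that stabilises the alternative pathway convertase and is released by neutrophils and monocytes. The probe set 1452279_at gave 485.8 to 2063 in KCASP1Tg mice, with a median of 714.7, against 725.2, 772.5, 468.1 and 395.6 in WT 1 to WT 4. KCASP1Tg 4 was far above every other array, and the next highest, KCASP1Tg 3, was at 914.3. Of the KCASP1Tg mice, 3 exceeded all WT mice and the other 3 lay within the WT range. Cfp averaged 900.7 ± 593.3 in KCASP1Tg mice and 590.4 ± 186.4 in WT mice (SD, n = 6 and 4), with a log2 fold change of 0.47 (SE 0.39, 95% interval −0.39 to 1.33, limma adjusted p = 0.850).

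Without KCASP1Tg 4 the Cfp difference was 0.19 (adjusted p = 0.934). That mouse also had the highest sums of macrophage, neutrophil and B cell markers, whose part in the Cfp signal was not tested. The second Cfp probe set, 1447537_at, did not follow the main probe set: KCASP1Tg 4 was the lowest KCASP1Tg mouse on it at 227.9. It averaged 267.7 ± 36.2 in KCASP1Tg mice and 289.9 ± 66.6 in WT mice (SD, n = 6 and 4), a log2 difference of −0.10 (SE 0.16, limma adjusted p = 0.958). The probe sets of this gene thus disagree in sign.

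**Figure D1:**
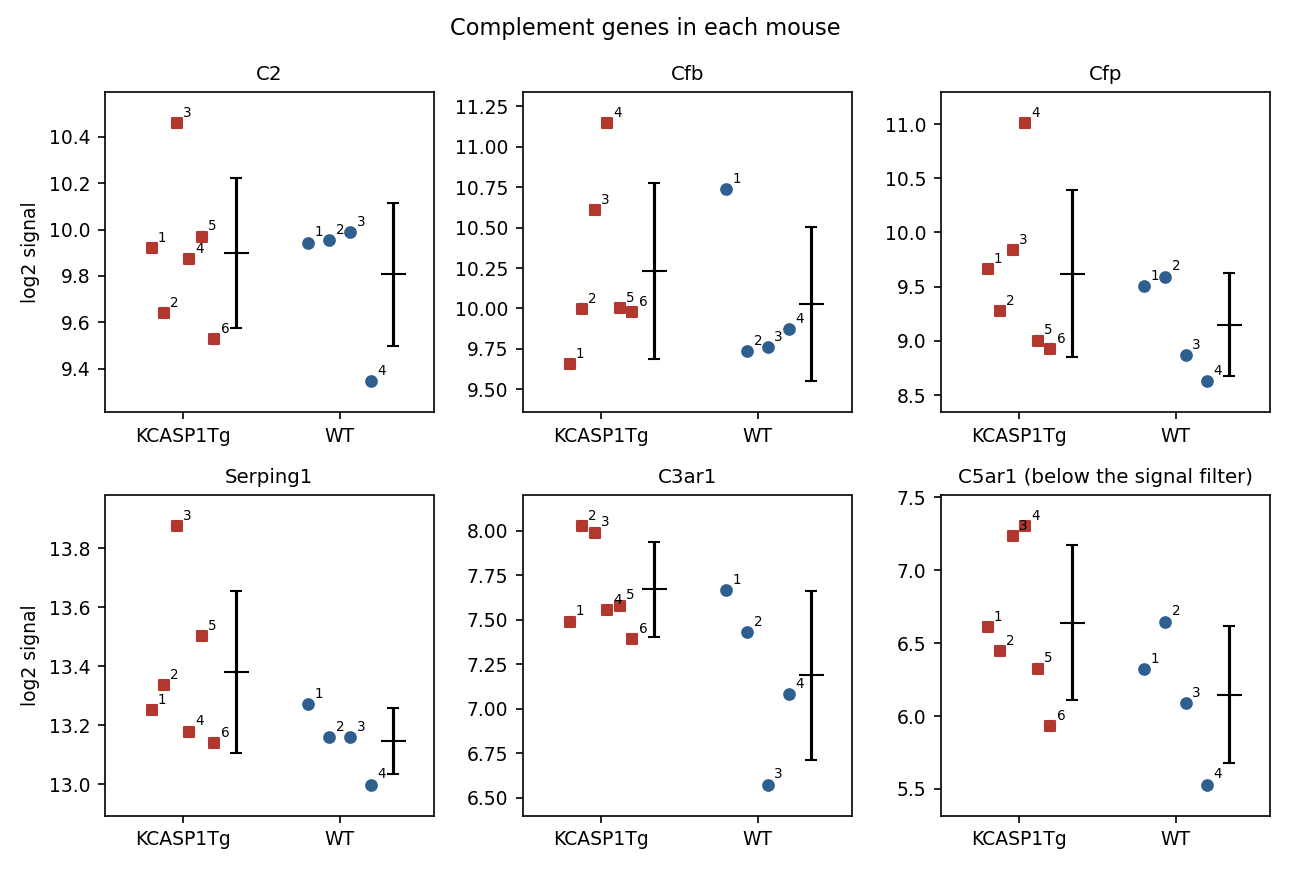
Log2 signal of the 6 complement genes with a value, on the probe set with the highest mean signal, in each KCASP1Tg mouse (red squares, n = 6) and WT mouse (blue circles, n = 4), with the mouse number beside each point and bars giving mean ± SD of the log2 values. The genotypes overlap in every panel, with KCASP1Tg 3 highest for C2 and Serping1 and KCASP1Tg 4 highest for Cfb, Cfp and C5ar1.

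Serping1 encodes the C1 inhibitor, the serpin that blocks C1r, C1s and the MASP proteases and also restrains the kallikrein pathway. Its only probe set, 1416625_at, gave 9029 to 15006.5 in KCASP1Tg mice, with a median of 10043, against 9889, 9150, 9153 and 8187 in WT 1 to WT 4. The WT mice were tightly grouped and KCASP1Tg 3 stood apart at the top. In all, 3 KCASP1Tg mice exceeded all WT mice and 1 WT mouse, WT 4, was below all KCASP1Tg mice. Serping1 averaged 10833 ± 2241 in KCASP1Tg mice and 9095 ± 697.7 in WT mice (SD, n = 6 and 4). The log2 fold change was 0.23 (SE 0.15, 95% interval −0.10 to 0.57, limma adjusted p = 0.776), and it was 0.13 without KCASP1Tg 3 (adjusted p = 0.886). KCASP1Tg 3 also had the highest fibroblast sum, 49558, and fibroblasts are a known source of C1 inhibitor. It had the highest adipocyte sum as well, 125908. The other KCASP1Tg mice had fibroblast sums of 29391 to 38362, all below the WT mice at 41304 to 46329. Of the 7 fibroblast markers, 0 had a higher mean in KCASP1Tg mice, whereas Serping1 averaged higher there. The part of either cell type in the Serping1 values was not tested.

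C3ar1 is the G protein-coupled receptor for the anaphylatoxin C3a, known from macrophages and other myeloid cells. On 1419482_at the signal was 167.8 to 260.1 in KCASP1Tg mice, with a median of 189.6, against 202.9, 172.2, 95.3 and 135.3 in WT 1 to WT 4. KCASP1Tg 2 and KCASP1Tg 3 (254.0) were above all WT mice, and WT 3 and WT 4 were below all KCASP1Tg mice. C3ar1 averaged 206.8 ± 39.8 in KCASP1Tg mice and 151.4 ± 46.5 in WT mice (SD, n = 6 and 4). Its log2 fold change of 0.48 (SE 0.22, 95% interval 0.00 to 0.97) had an unadjusted limma p of 0.0493 and an adjusted p of 0.627.

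All 3 C3ar1 probe sets pointed the same way. On 1419483_at the mean was 178.7 ± 37.8 in KCASP1Tg mice and 143.0 ± 36.4 in WT mice, a log2 difference of 0.33 (SE 0.20, limma adjusted p = 0.747). On 1442082_at it was 172.4 ± 44.1 in KCASP1Tg mice and 127.8 ± 29.4 in WT mice, a difference of 0.42 (SE 0.23, limma adjusted p = 0.707). The genotypes overlapped on each of them. Leaving out WT 3, where the main probe set was lowest, gave 0.28 (adjusted p = 0.969), whereas the value without KCASP1Tg 4, the array richest in leukocyte transcripts, was 0.51 (adjusted p = 0.620). The part of the macrophage transcripts given above in the C3ar1 values was not tested.

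C5ar1 is the receptor for C5a, a strong attractant of neutrophils and macrophages. Its signals were low: on each of its 2 probe sets only 3 arrays reached 100, so that neither entered the limma test, and the exact Mann-Whitney test was used alone. On 1422190_at the signal was 61.1 to 157.6 in KCASP1Tg mice, with a median of 92.4, against 80.0, 100.2, 68.0 and 46.2 in WT 1 to WT 4. KCASP1Tg 4 and KCASP1Tg 3 (150.5) were above all WT mice and the other 4 were not. The mean was 105.7 ± 39.4 in KCASP1Tg mice and 73.6 ± 22.6 in WT mice (SD, n = 6 and 4), a log2 difference of 0.49 (two-sided exact Mann-Whitney p = 0.257).

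The second C5ar1 probe set, 1439902_at, came closest to separating the genotypes. It gave 51.3, 108.0, 121.6, 120.2, 94.8 and 57.3 in KCASP1Tg 1 to 6, against 42.8, 35.0, 52.1 and 66.6 in WT 1 to WT 4. Here 4 KCASP1Tg mice were above all WT mice, while KCASP1Tg 1 and KCASP1Tg 6 lay within the WT range. C5ar1 averaged 92.2 ± 31.0 in KCASP1Tg mice and 49.1 ± 13.6 in WT mice on this probe set (SD, n = 6 and 4), a log2 difference of 0.87 (two-sided exact Mann-Whitney p = 0.0667). With 6 against 4 mice the smallest p this test can give is 0.00952.

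**Figure D2:**
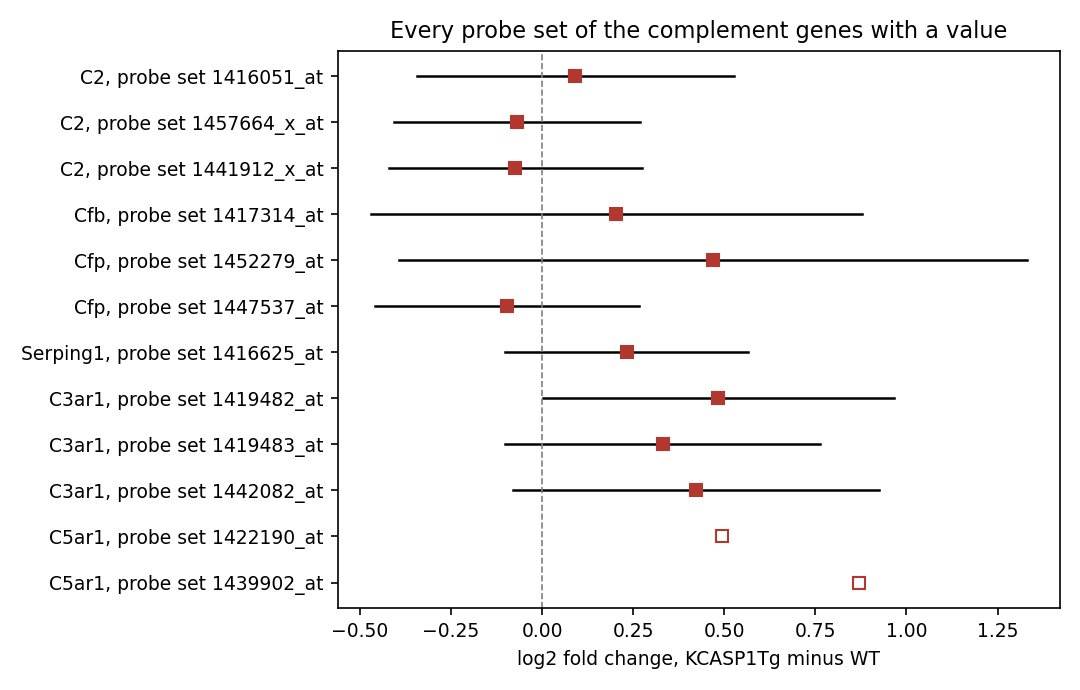
Log2 fold change, KCASP1Tg minus WT, of all 12 probe sets of C2, Cfb, Cfp, Serping1, C3ar1 and C5ar1. Filled squares with lines are limma estimates with 95% intervals, open squares are differences of means for the 2 C5ar1 probe sets outside the test, and the values run from −0.10 to 0.87.

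WT 4, the array with the most heart muscle transcripts, was the lowest array on 7 of the 12 probe sets. Several of these probe sets belong to the same gene, and the share over all probe sets is not given here. KCASP1Tg 1 (29566) and KCASP1Tg 2 (16759) also had high heart muscle sums, and each was lowest on 1 of the 12. Without WT 4 the log2 difference was −0.06 for C2, 0.15 for Cfb, 0.30 for Cfp, 0.18 for Serping1, 0.45 for C3ar1 and 0.29 for C5ar1, and the part of those transcripts was not tested. Over the 12 probe sets, 9 had a positive and 3 a negative log2 fold change. Of the 10 that were tested, 0 were called in either direction by limma, 1 had an unadjusted p under 0.05 (C3ar1, 1419482_at; 8.09% of all tested genes did), and the adjusted p ran from 0.627 to 0.972. Among the 12295 genes tested in the whole series, 0.0895% were called higher and 0% lower in KCASP1Tg mice, so that 0 calls among 5 tested genes is near the background. By the exact Mann-Whitney test the 12 probe sets had p-values from 0.0667 to 0.914, and 0 of them had genotypes that did not overlap. In the series as a whole 2.29% of tested genes did not overlap with KCASP1Tg mice higher and 1.04% with KCASP1Tg mice lower. The median log2 fold change was 0.23 over the 5 tested genes and 0.35 with C5ar1 included, against 0.00 over all tested genes.

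The wider complement system was covered by a list of 59 genes, of which 47 had a probe set and 30 were tested. By limma, 0 of the 30 were called in either direction, 6 had an unadjusted p under 0.05 with KCASP1Tg mice higher and 2 with KCASP1Tg mice lower, and the median log2 fold change was 0.11. Over all 12295 tested genes, 4.67% had an unadjusted p under 0.05 with KCASP1Tg mice higher and 3.42% with KCASP1Tg mice lower. The genotypes did not overlap for 1 of the 30 genes with KCASP1Tg mice higher (Itgb2) and 1 with KCASP1Tg mice lower (Cd59a), beside the 2.29% and 1.04% of all tested genes given above. All 6 tested genes of the classical pathway had a positive log2 fold change (median 0.43), and so did 6 of the 7 tested receptors (median 0.48). Among the membrane regulators 1 of 6 was positive (median −0.06), and the 4 tested genes of the lectin pathway were split evenly (median 0.04). The 4 fluid-phase regulators had a median of −0.05, and the tested genes of the alternative pathway were Cfb and Cfp alone. The terminal pathway had 1 tested gene, C8g, with a log2 difference of −1.16 (limma adjusted p = 0.694) and its highest signal in WT 1.

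**Figure D3:**
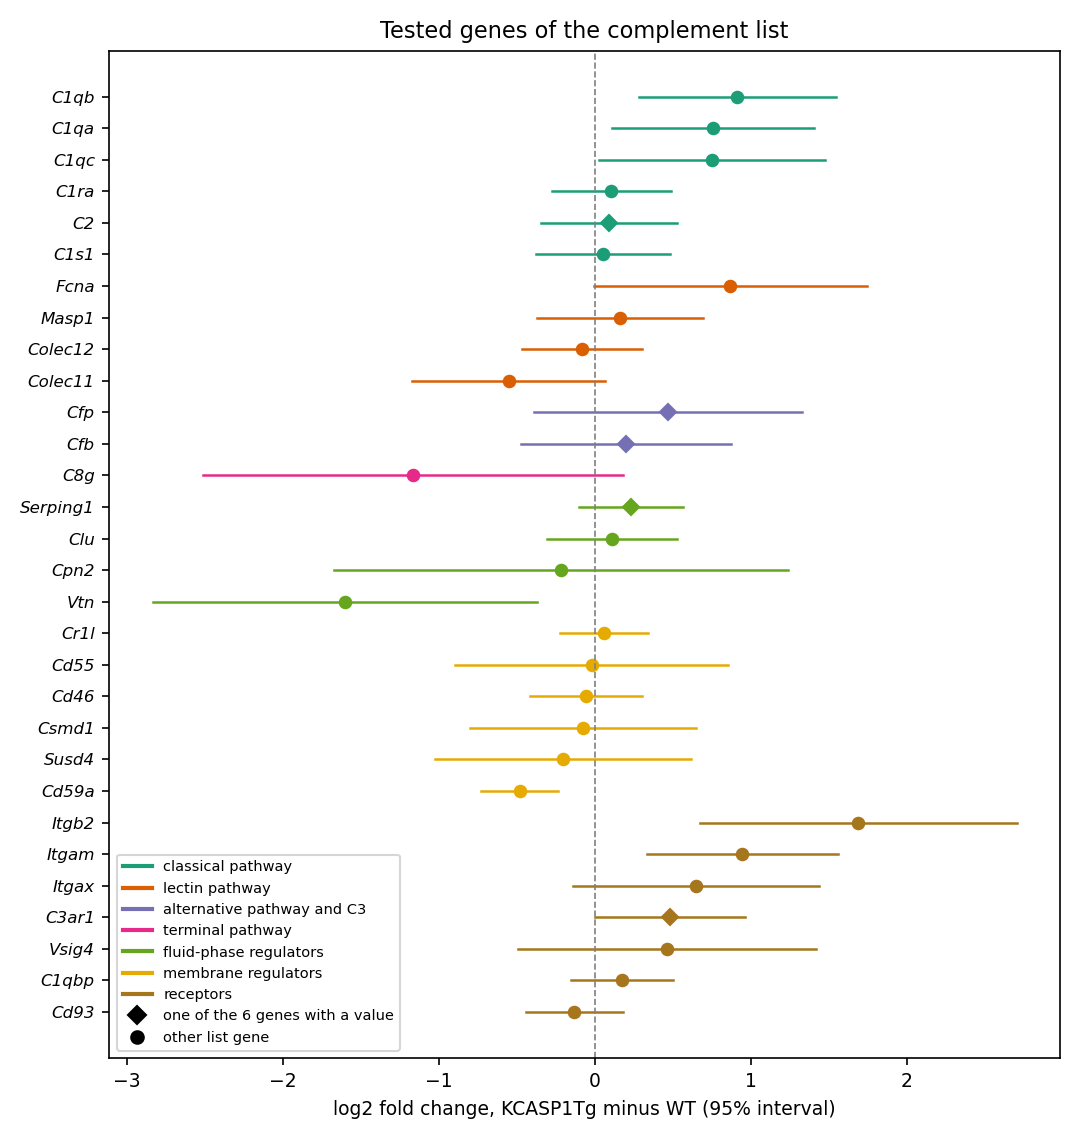
Log2 fold change, KCASP1Tg minus WT, of the 30 tested genes of the complement list with 95% limma intervals, coloured by class. Diamonds mark C2, Cfp, Cfb, Serping1 and C3ar1; Itgb2 lies farthest to the right at 1.69 and Vtn farthest to the left at −1.60, and no gene passed the adjusted threshold.

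C1q, the recognition molecule that starts the classical pathway upstream of C2, is built from the products of C1qa, C1qb and C1qc, genes typical of tissue macrophages that lie side by side. C1qb (1417063_at) gave 1624 to 4784 in KCASP1Tg mice, with a median of 2199.8, against 1784, 1269, 1131 and 1194 in WT 1 to WT 4. Here 5 KCASP1Tg mice were above all WT mice and KCASP1Tg 6 was not. Its mean was 2672 ± 1173 in KCASP1Tg mice and 1344 ± 298.2 in WT mice (SD, n = 6 and 4), a log2 difference of 0.91 (SE 0.28, limma adjusted p = 0.422). Its other probe sets gave 0.96 (1437726_x_at, with genotypes that did not overlap, limma adjusted p = 0.344) and 0.42 (1434366_x_at, limma adjusted p = 0.651). C1qa averaged 3420.4 ± 1372 in KCASP1Tg mice and 1924 ± 408.1 in WT mice, a difference of 0.76 (SE 0.29, limma adjusted p = 0.536).

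C1qc differed to a like extent, with 2908 ± 1530.0 in KCASP1Tg mice and 1578 ± 251.9 in WT mice and a log2 difference of 0.75 (SE 0.33, limma adjusted p = 0.606). KCASP1Tg 4 was the highest array for all 3 C1q genes, and without it the differences were 0.73 for C1qb, 0.61 for C1qa and 0.53 for C1qc. The proteases that C1q activates, which Serping1 inhibits, were nearly level. C1ra averaged 1211 ± 311.6 in KCASP1Tg mice and 1099.7 ± 75.6 in WT mice, a log2 difference of 0.11 (limma adjusted p = 0.955), and C1s1 3305 ± 918.2 in KCASP1Tg mice and 3098 ± 275.4 in WT mice, a difference of 0.05 (limma adjusted p = 0.990). The sign turned negative for both with array weights and without KCASP1Tg 3, and for C1s1 also without WT 4 or without KCASP1Tg 4.

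Fcna, ficolin A of the lectin pathway, which macrophages express in mice, averaged 1408 ± 904.8 in KCASP1Tg mice and 673.4 ± 144.5 in WT mice (SD, n = 6 and 4). KCASP1Tg 4 (2947) and KCASP1Tg 3 (2077) carried the high mean and the other 4 KCASP1Tg mice were at 688.6 to 987.4. The log2 difference was 0.87 (SE 0.40, limma adjusted p = 0.632).

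Complement receptor 3, which binds the C3 fragment iC3b on leukocytes, is the pair of Itgam (CD11b) and Itgb2 (CD18). Itgb2 gave 847.6 to 5226 in KCASP1Tg mice, with a median of 1209.8, against 535.0, 492.4, 397.3 and 368.5 in WT 1 to WT 4. The genotypes did not overlap, and KCASP1Tg 4 was far above the next mouse, KCASP1Tg 3 at 1579. Itgb2 averaged 1823 ± 1696 in KCASP1Tg mice and 448.3 ± 78.4 in WT mice (SD, n = 6 and 4), a log2 difference of 1.69 (SE 0.46, limma adjusted p = 0.331, two-sided exact Mann-Whitney p = 0.00952). It was 1.31 without KCASP1Tg 4 (adjusted p = 0.0671).

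Itgam gave 113.5 to 319.6 in KCASP1Tg mice, with a median of 187.7, against 86.2, 115.8, 71.1 and 100.4 in WT 1 to WT 4. Only WT 2 reached into the KCASP1Tg range. The mean was 188.1 ± 74.4 in KCASP1Tg mice and 93.4 ± 19.1 in WT mice (SD, n = 6 and 4), with a log2 fold change of 0.95 (SE 0.28, limma adjusted p = 0.380). Both integrins were highest in KCASP1Tg 4, as were the macrophage and neutrophil sums given above. Among WT mice, Itgam was highest in WT 2, which had the lowest neutrophil sum (612). Itgb2 was highest in WT 1, which had the highest WT macrophage sum (15084). The WT signals of Itgam were near the signal filter of 100. The part of these cell types in the integrin values was not tested.

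Cd59a encodes the lipid-anchored inhibitor that stops assembly of the membrane attack complex on host cells. On 1418710_at it gave 2415 to 3304 in KCASP1Tg mice, with a median of 2981, against 3947, 4176, 4279 and 4054 in WT 1 to WT 4. Every KCASP1Tg mouse was below every WT mouse, and KCASP1Tg 4 was the lowest. The mean was 2964 ± 337.4 in KCASP1Tg mice and 4114 ± 144.4 in WT mice (SD, n = 6 and 4), a log2 difference of −0.48 (SE 0.11, 95% interval −0.73 to −0.23, limma adjusted p = 0.213). With array weights, which count KCASP1Tg 4 and WT 4 least, Cd59a passed at an adjusted p of 0.0476.

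The second Cd59a probe set, 1429830_a_at, overlapped between genotypes, with 2595.5 ± 338.5 in KCASP1Tg mice and 3223 ± 335.1 in WT mice and a log2 difference of −0.32 (SE 0.13, limma adjusted p = 0.565). This probe set was lowest in KCASP1Tg 3 (2160.3), with KCASP1Tg 4 next at 2181. The main probe set and the smooth muscle sum were both lowest in KCASP1Tg 4, and without that mouse the main probe set differed by −0.42 (adjusted p = 0.137).

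**Figure D4:**
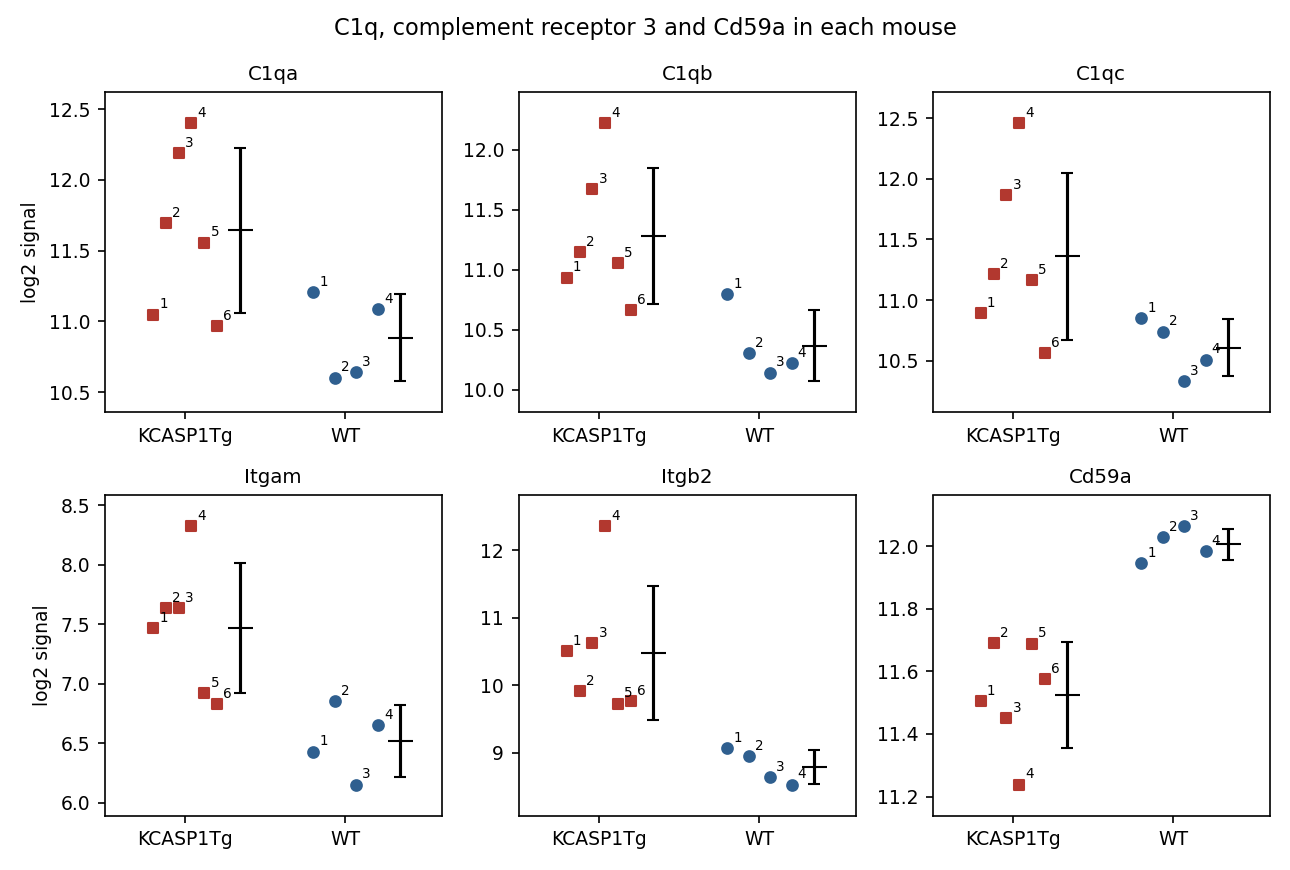
Log2 signal of the 3 C1q genes, of the receptor subunits Itgam and Itgb2 and of Cd59a in each KCASP1Tg mouse (red squares, n = 6) and WT mouse (blue circles, n = 4), with mouse numbers beside the points and bars for mean ± SD of the log2 values. Only Itgb2 and Cd59a separate the genotypes in these panels, and KCASP1Tg 4 is the extreme KCASP1Tg mouse in all of them.

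On the probe set with the highest mean signal, the log2 differences of the tested inhibitors Cd55, Cr1l and Clu were close to 0. Cd55, which speeds the decay of convertases, averaged 864.3 ± 633.9 in KCASP1Tg mice and 774.7 ± 208.4 in WT mice, with KCASP1Tg 4 at 2135. Its log2 difference of −0.02 (limma adjusted p = 0.999) changed sign with the mouse left out. The other tested Cd55 probe sets gave 0.23 (1460242_at, limma adjusted p = 0.955) and 0.07 (1443906_at, limma adjusted p = 0.992). Cr1l, the rodent convertase inhibitor Crry, averaged 2204 ± 301.8 in KCASP1Tg mice and 2106 ± 199.9 in WT mice, a difference of 0.06 (limma adjusted p = 0.972) that was −0.05 without WT 1 and WT 3. Clu, clusterin, an inhibitor of the terminal complex, averaged 9780.0 ± 2783 in KCASP1Tg mice and 8805 ± 825.2 in WT mice, a difference of 0.11 (limma adjusted p = 0.956) that was −0.02 without KCASP1Tg 4.

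Some complement genes, Vtn, Hc and Cfi among them, had their highest signals in WT 1. Vtn, vitronectin, which keeps terminal complexes out of membranes, gave 404.6 to 922.8 in KCASP1Tg mice, with a median of 470.1, against 6299, 748.1, 1801 and 687.6 in WT 1 to WT 4. The high WT values were in WT 1 and WT 3, the arrays with the highest hepatocyte sums. Its log2 difference was −1.60 (SE 0.56, limma adjusted p = 0.480), and it was −0.49 without these WT mice (adjusted p = 0.9998).

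Hc, which encodes complement C5, the precursor of the C5ar1 ligand, was outside the signal filter and gave 9.79 to 62.6 in KCASP1Tg mice, with a median of 23.6, against 1103, 47.9, 344.4 and 105.7 in WT 1 to WT 4. Cfi, factor I, which inactivates C3b and C4b, was likewise outside it, with 47.6 to 97.3 in KCASP1Tg mice (median 82.1) against 2705, 54.2, 643.9 and 185.8 in WT 1 to WT 4. C6, a terminal component, was at 67.1 to 308.8 in KCASP1Tg mice and 82.6 to 102.9 in WT mice and did not have this pattern. WT 1 was the highest and WT 3 the second highest array for 14 of the 47 list genes with a probe set, against 2.13% of all 18193 genes, and for 0 of C2, Cfb, Cfp, Serping1, C3ar1 and C5ar1. Of these 14, only Vtn and C8g had been tested, and the pattern was counted after the values were seen.

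**Figure D5:**
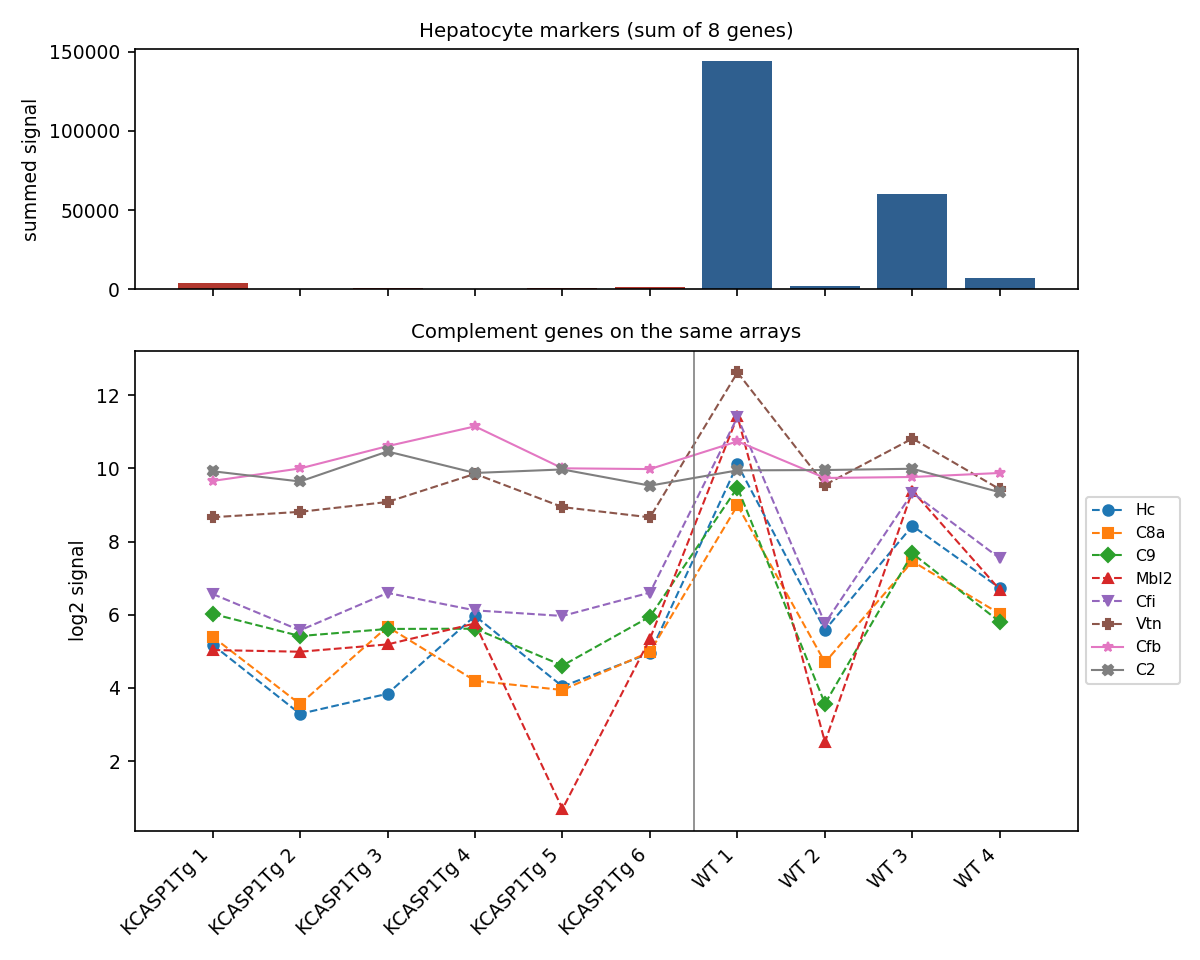
Upper panel, summed signal of 8 hepatocyte markers on each array; lower panel, log2 signal of 6 complement genes (dashed) and of Cfb and C2 (solid) on the same arrays, KCASP1Tg 1 to 6 and then WT 1 to 4. The sums of 144220 in WT 1 and 60403 in WT 3 stand above all others, and Hc, C8a, C9, Mbl2, Cfi and Vtn are highest on these arrays while C2 is not.

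As a description of which transcripts varied alongside each gene, Pearson's r was taken over the 10 arrays after subtracting the genotype means, against all tested genes. The best match was Sfxn2 for C2 (r = 0.95), Ablim1 for Cfb (r = 0.95), Napsa for Cfp (r = 0.97), Mmrn2 for Serping1 (r = 0.98), Tbcc for C3ar1 (r = 0.87) and Rnf26 for C5ar1 (r = 0.94). The next were Ildr2 and Zfp503 for C2, Mmp9 and Pdia4 for Cfb, Eif3a and Grn for Cfp, Vnn3 and Adamts12 for Serping1, Insr and Vsig4 for C3ar1, and Srsf2 and Prf1 for C5ar1. Leaving out KCASP1Tg 4 left these 18 correlations between 0.85 and 0.98. These are the highest of 12294 or 12295 correlations each, and high values arise among so many with 10 arrays.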

How the data were processed

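Abdominal aorta RNA of 6 KCASP1Tg and 4 WT mice was measured on 3′ GeneChip arrays. The deposited values are signal intensities per probe set on a linear scale, which the authors computed with MAS5.0 and scaled to a trimmed mean of 500; the genome build is not given in the sources used here. The methods name fewer mice than there are arrays, and another RNA input than the labels do; p-values take each array as a separate mouse, as labelled. Of 45101 probe sets 64 controls were left out, and 34945 carried 1 gene symbol in the platform annotation, of which 34741 were matched by gene identifier to the current gene table. Probe sets with several symbols or none named no gene.

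After a floor of 1, log2 values entered limma 3.58.1 (R 4.3.3) for the 26242 probe sets that reached a signal of 100 on 4 or more arrays. The model held genotype only, with Benjamini-Hochberg adjustment over all of these probe sets and calls at an adjusted p under 0.05. Two-sided exact Mann-Whitney tests, which the methods name, were run beside it (Python 3.11.15). A gene was counted by its probe set with the highest mean signal (12295 tested genes). MAS5.0 gives no interval per probe set here, so precision rests on the number of arrays. The steps were tested on simulated independent values, where a set share of recovered changes was required only for the largest change. That change was well above the log2 differences of these genes, so the simulation does not show whether differences of their size would be called. Alternatives were the floor, the pseudocount, the filter, the normalization, the intensity trend, array weights, the replicate number as a block, the mean over probe sets and each array left out. The exclusion of WT 1 and WT 3, with or without KCASP1Tg 4, was added after seeing the data. Named were all 9 genes, the called genes of the list, up to 8 list genes with the smallest p, 18 fixed partners and the 3 genes most alike to each. The genes and lists were chosen with earlier results of these data known. Of the partners, 4 were not analysed here, among them C4a, Cfd and C5ar2. Marker lists for adipocytes, mesothelium, endothelium and epidermis were also summed (79167 to 125908, 1338 to 3727, 8250 to 13377 and 250 to 432 in KCASP1Tg mice against 89248 to 104354, 1434 to 3155, 10778 to 12686 and 351 to 406 in WT mice).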

Additional observations from a re-analysis of the deposited data

Results flagged for a closer look

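In 50 checks of a genotype's values for a mouse far from the others, 5 stood out, and chance alone marks about 1 in 20 such groups. C2 was at 650.5 in WT 4, against 984.7 to 1016 in the other WT mice. Cfb was at 1707 in WT 1, against 853.1 to 937.6 in the other WT mice. The other 3 were in KCASP1Tg 4: Itgb2 at 5226, where the remaining KCASP1Tg mice lay between 847.6 and 1579, Cd55 at 2135, where they lay between 473.5 and 822.5, and Vtn at 922.8, where they lay between 404.6 and 541.5.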

How the results depend on the processing

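None of C2, Cfb, Cfp, Serping1 and C3ar1 was called in either direction under any alternative run. Of 413 recomputed log2 differences of the named genes with an adjusted p, 387 kept their sign and their side of the threshold, and 16 of C5ar1 without an adjusted p kept their sign. With array weights 1 list gene was called lower, Cd59a. The log2 difference changed sign for C2 with array weights (−0.034), with the mean of its probe sets (−0.018) and with a mouse left out (−0.063 to 0.17), and for Cfb with array weights (−0.0092). It changed sign for C1ra with array weights (−0.027) and with a mouse left out (−0.013 to 0.17), and for C1s1 likewise (−0.13, and −0.057 to 0.13). Cd55 changed with the replicate block (0.20), without WT 1 and WT 3 (0.23), with the mean of its probe sets (0.094) and with a mouse left out (−0.32 to 0.11). Cr1l changed without WT 1 and WT 3 (−0.046), without these and KCASP1Tg 4 (−0.056) and with a mouse left out (−0.0012 to 0.12), and Clu with a mouse left out (−0.018 to 0.18). The cause of these changes was not tested. Over all probe sets, 18 were called higher and 0 lower. The higher count was 204 with array weights, 0 with the replicate block, 0 without WT 1 and WT 3, 0 by the adjusted Mann-Whitney test and 2 (without WT 3) to 61 (without KCASP1Tg 4) with a mouse left out, with 10 without KCASP1Tg 1 and 37 without KCASP1Tg 6. The lower count was 1 with a floor of 16, 2 with a pseudocount of 50, 2 with no filter, 3 with a filter of 200, 1 with quantile normalization, 2 with median centring, 3 with the intensity trend, 63 with array weights and 0 to 7 with a mouse left out. Mice that share a number did not deviate together (r of 0.11, −0.31, −0.43 and −0.33 for the numbers 1 to 4). These values show no pairing by number, but 4 of them are too few to exclude one. Low signals limit C5ar1, which had no limma value with the filter and was not called without it (adjusted p = 0.847).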

Other observations

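Further list genes, singled out after their values were seen, were highest in KCASP1Tg 4. For Cr2, Itgax and C6, KCASP1Tg 3 was above all WT mice as well. Cr2, the C3d receptor of B cells and follicular dendritic cells, reached 777.6 there, while the remaining KCASP1Tg mice had 5.32 to 121.1 and WT mice 10.6 to 73.7. That mouse had the highest B cell sum, 13220. Itgax, CD11c of complement receptor 4, reached 339.8 there, while the remaining KCASP1Tg mice had 74.0 to 143.5 and WT mice 78.5 to 90.6 (log2 difference 0.65, limma adjusted p = 0.715). C6 was at 308.8 in the same mouse. Vsig4, the macrophage receptor for C3b, had its highest value instead in KCASP1Tg 3 (317.6), and WT 1 followed at 249.95 (log2 difference 0.47, limma adjusted p = 0.879).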
